A study of Mus musculus with 8 samples.

Results

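The genes described here are the 10 inhibitory and costimulatory receptors by which T cells are checked or helped during activation: Cd28, Icos, Ctla4, Pdcd1, Btla, Tigit, Lag3, Havcr2, Cd200r1 and Cd160. They were chosen by name. Each was matched to probe sets that the array platform annotates to that symbol alone, and all 10 had exactly 1 such probe set, out of 19937 genes measured in this way. The samples were regulatory T cells (Tregs), CD4 T cells that carry the transcription factor FoxP3 and restrain immune responses. They had been sorted as FoxP3+ cells from mice labelled Bcl6 knock-out (KO) and from wild-type (WT) mice, and were stimulated with antibodies to CD3 and CD28 for 16 h. There were 4 KO-labelled and 4 WT arrays, and each group held preparations 1 and 2 with arrays A and B. All arrays therefore show activated cells, and none shows resting ones. The KO genotype is given as Bcl6-/-, with no word on how the gene was disrupted, on the strain or on the age of the mice. What a preparation or a letter stands for is not given either. The p-values therefore reflect the spread among these 8 arrays alone, part or all of which may be technical, and so small a number of arrays limits precision.

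CD28 and ICOS are costimulatory receptors: they bind ligands on antigen-presenting cells and recruit phosphoinositide 3-kinase, which strengthens the signal of the T cell receptor. CTLA-4 competes with CD28 for the same ligands, CD80 and CD86, and removes them from the presenting cell, and in Tregs this is a main route of suppression. PD-1, the product of Pdcd1, and BTLA recruit phosphatases through tyrosine motifs in their tails, while TIGIT, LAG-3, TIM-3 (Havcr2), the CD200 receptor and CD160 bind further ligands on neighbouring cells. Several of these receptors are induced by activation and are abundant on effector Tregs.

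The arrays did not fall apart by genotype label alone. Over all probe sets, log2 values had an SD of 1.84 to 1.87 in KO 1, of 1.61 to 1.65 in KO 2 and of 1.56 to 1.70 in WT, so each result below is given for KO 1 and KO 2 apart. Bcl6 itself averaged 8.72 log2 in KO-labelled and 8.13 in WT Tregs, and was not lower in any KO-labelled array than in a WT array. Which part of the gene the probes cover was not used here, so this does not check the labels. Eif2s3y, Kdm5d and Uty, which are Y-linked, had a mean log2 level between 4.62 and 4.80 in KO-labelled Tregs, against 6.94 to 8.30 in WT Tregs. This level moved with the genotype label in each comparison of KO-labelled with WT arrays. Its part in them cannot be told apart from that of the label and was not tested. The 7 Treg markers, Foxp3 among them, had a mean log2 level between 10.69 and 11.31 in KO-labelled Tregs, against 10.002 to 10.71 in WT Tregs. All 7 differences were above 0, and limma called 0 of the 7, against 0.135% of all genes. For 3 of the 7, all 4 KO-labelled arrays lay above all 4 WT arrays, against 6.67% of all genes. The part of this in the receptors' differences was not tested. The 5 measured B cell markers averaged 6.08 to 6.46 against 6.15 to 6.48, the 9 myeloid markers 6.17 to 6.48 against 6.18 to 6.52, and the 5 NK and CD8 T cell markers 5.71 to 6.04 against 5.97 to 6.09, KO-labelled before WT in each case.

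The 10 receptor genes separated into 3 patterns. Cd200r1, Icos, Tigit, Havcr2 and Ctla4 lay higher in all 4 KO-labelled arrays than in any WT array. Of these, Cd200r1 alone passed the test over all genes. Lag3 was high in KO 1 and at the WT level in KO 2. Cd28, Pdcd1, Btla and Cd160 had overlapping values in the KO-labelled and WT arrays. With limma and Benjamini-Hochberg adjustment over all 19937 genes, 1 of the 10 passed at an adjusted p under 0.05 towards higher levels and 0 passed towards lower ones, against 0.120% and 0.0150% of all genes. Before adjustment, 5 had a p under 0.05 towards higher levels and 0 towards lower ones, against 5.65% and 0.542% of all genes. All 4 KO-labelled arrays lay above all 4 WT arrays for 5 of the 10, against 6.67% of all genes, and below them for 0 of the 10, against 2.11%. Taken alone, KO 1 lay above every WT array for 7 of the 10 (34.0% of all genes). KO 2 did so for 5 (9.54% of all genes) and lay below every WT array for 1, Pdcd1 (4.75% of all genes). The difference was above 1 log2 for 4 receptors, against 1.91% of all genes. The median log2 difference of the 10 was 0.94, beside -0.06 over all genes. In bulk RNA such as this, more cells that carry a receptor and more of its RNA in each cell cannot be told apart.

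**Figure D1:**
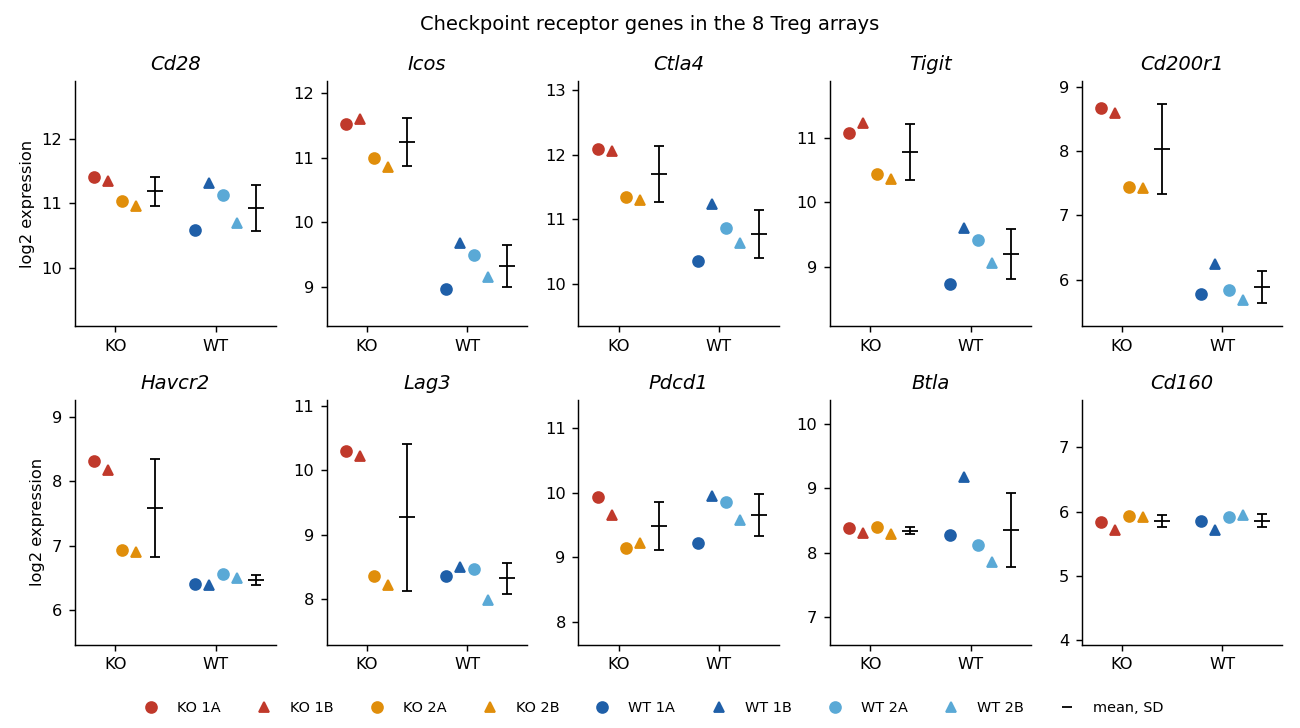
Log2 expression (vertical axes, each spanning the same range of log2 units) of the 10 receptor genes in every array. KO-labelled arrays are on the left of each panel and WT arrays on the right, colours mark preparations, circles and triangles mark arrays A and B, and the bars give the mean and SD of 4 arrays. Icos, Ctla4, Tigit, Cd200r1 and Havcr2 have no overlap between the groups, and Lag3 is high in KO 1 alone.

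Cd28, Ctla4 and Icos lie next to each other in this order in the mouse genome, by the RefSeq annotation of GRCm38.p6, yet their levels differed in how far they followed the genotype label. Icos (probe set 10346799), whose product amplifies help signals and supports effector Tregs, had log2 levels of 11.52 and 11.61 in KO 1 and 11.00 and 10.86 in KO 2, against 8.96 and 9.68 in WT 1 and 9.49 and 9.16 in WT 2. The lowest KO-labelled array was 1.18 log2 above the highest WT array. KO-labelled Tregs averaged 11.25 ± 0.37 and WT Tregs 9.32 ± 0.32 (SD, n = 4 each), a 3.80-fold difference. This log2 difference of 1.93 (SE 0.36) did not pass in limma (adjusted p = 0.0676). It was 2.25 for KO 1 and 1.61 for KO 2 over the same WT mean. Icos passed after quantile normalization (adjusted p = 0.00189) and with each array set to an equal median and SD (adjusted p = 0.0460).

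Cd28 (probe set 10346783), the receptor that 1 of the stimulating antibodies binds, was at 11.41 and 11.35 in KO 1 and 11.03 and 10.96 in KO 2, against 10.58 and 11.31 in WT 1 and 11.13 and 10.68 in WT 2. KO 2 lay within the WT range, and KO 1 only just above it. Cd28 differed by 0.26 log2 (SE 0.37, adjusted p = 0.728), with a 95% interval from -0.53 to 1.05. That value was 0.10 after quantile normalization, 0.06 with an equal median and SD, 0.09 without WT 1A, 0.16 without WT 2B and 0.44 without WT 1B. It was 0.07 without KO 1 and 0.45 without KO 2. Ctla4 (probe set 10346790) had log2 levels of 12.09 and 12.05 in KO 1 and 11.35 and 11.30 in KO 2, against 10.35 and 11.23 in WT 1 and 10.86 and 10.63 in WT 2. The groups did not overlap, but the nearest arrays, KO 2B and WT 1B, were only 0.07 log2 apart, and centring each array on its median made them overlap. KO-labelled Tregs averaged 11.70 ± 0.43 and WT Tregs 10.77 ± 0.37 (SD, n = 4 each). The log2 difference of 0.93 (SE 0.40) did not pass (adjusted p = 0.701 in limma). It was 1.30 for KO 1 and 0.56 for KO 2.

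In the RefSeq promoter table, which covers 250 bases before and 50 bases after a gene's start, 6 of the 10 genes had an entry. They were searched on both strands for TTCNNNGAA (the core of the BCL6 motif), TGANTCA (AP-1), GGAAA (NFAT) and GATAA (GATA factors). A match here is a match of letters and no site, and none of the motifs overlapped in the promoters shown. Ctla4, Tigit and Havcr2 are printed because their KO-labelled arrays lay above all WT arrays. The promoter of Cd160 is shown because it held the sole TTCNNNGAA match among these 6 genes. Capitals mark the matches, on either strand. The windows are chr1:60908775-60909074 (plus strand) for Ctla4, chr16:43664135-43664434 (minus strand) for Tigit, chr11:46454681-46454980 (plus strand) for Havcr2 and chr3:96814472-96814771 (minus strand) for Cd160, all in GRCm38.p6.
Ctla4: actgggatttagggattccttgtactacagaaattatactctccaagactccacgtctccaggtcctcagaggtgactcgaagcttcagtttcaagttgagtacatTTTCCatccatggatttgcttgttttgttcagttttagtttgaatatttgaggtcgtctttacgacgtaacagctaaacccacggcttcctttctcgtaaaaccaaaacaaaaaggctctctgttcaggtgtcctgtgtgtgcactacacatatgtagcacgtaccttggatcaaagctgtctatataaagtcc
Tigit: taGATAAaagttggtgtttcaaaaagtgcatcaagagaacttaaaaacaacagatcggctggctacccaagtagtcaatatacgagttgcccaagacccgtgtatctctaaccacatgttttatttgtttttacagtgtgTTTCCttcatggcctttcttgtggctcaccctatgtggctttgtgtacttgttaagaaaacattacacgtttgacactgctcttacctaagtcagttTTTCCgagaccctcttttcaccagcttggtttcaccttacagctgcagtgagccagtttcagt
Havcr2: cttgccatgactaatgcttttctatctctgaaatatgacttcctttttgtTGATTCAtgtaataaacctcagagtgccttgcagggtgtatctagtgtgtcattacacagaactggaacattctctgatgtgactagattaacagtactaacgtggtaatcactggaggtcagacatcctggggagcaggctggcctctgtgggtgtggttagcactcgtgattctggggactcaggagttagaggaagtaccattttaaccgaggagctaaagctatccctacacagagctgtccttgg
Cd160: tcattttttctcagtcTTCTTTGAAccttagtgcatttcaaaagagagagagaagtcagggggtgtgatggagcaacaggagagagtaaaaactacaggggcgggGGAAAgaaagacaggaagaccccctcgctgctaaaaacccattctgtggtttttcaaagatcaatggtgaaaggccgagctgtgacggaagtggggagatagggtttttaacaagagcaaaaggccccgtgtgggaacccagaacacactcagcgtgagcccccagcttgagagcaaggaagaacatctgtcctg

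The Ctla4 window held 1 NFAT match, the Tigit window 2 NFAT matches and 1 GATA match, and the Havcr2 window 1 AP-1 match. The Cd160 window shown held 1 BCL6 match, at position -234 from the gene's start, and 1 NFAT match. Its other window held none of the 4 motifs. Pdcd1 had 2 NFAT matches and Btla none of the 4. Among the 32851 promoters of the table, 8.3% held the BCL6 motif, 7.81% the AP-1 motif, 61.3% the NFAT motif and 25.4% the GATA motif.

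Pdcd1 and Btla encode inhibitory receptors whose levels showed no called difference between the groups. Pdcd1 (probe set 10356866), which encodes PD-1, was at 9.93 and 9.66 in KO 1 and 9.15 and 9.22 in KO 2, against 9.22 and 9.94 in WT 1 and 9.86 and 9.58 in WT 2. KO 1 lay within the WT range and both KO 2 arrays just under its low end. Pdcd1 differed by -0.16 log2 (SE 0.35, adjusted p = 0.802), with a 95% interval from -0.92 to 0.60. The value moved with the scaling, to -0.44 after quantile normalization, -0.27 with an equal median and SD and -0.06 with median centring. Leaving out 1 array put it between -0.34 (without WT 1A) and 0.0041 (without WT 1B). It was 0.14 without KO 2 and -0.47 without KO 1, the last with an adjusted p of 0.0229 with the random block and 0.754 with no block. Btla (probe set 10435982), the receptor for the herpesvirus entry mediator, was at 8.38, 8.31, 8.39 and 8.28 in the KO-labelled arrays, against 8.27, 9.16, 8.11 and 7.86 in the WT arrays. The KO-labelled arrays were close together and the WT arrays spread widely around them, with WT 1B the highest. Btla differed by -0.01 log2 (SE 0.37, adjusted p = 0.987), with a 95% interval from -0.81 to 0.79. The sign was not the same under all scalings: -0.20 after quantile normalization, -0.01 as deposited, about zero with an equal median and SD and 0.09 with median centring.

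Tigit (probe set 10439527), a receptor for the nectin-like ligand CD155 that marks highly suppressive Tregs, had log2 levels of 11.08 and 11.22 in KO 1 and 10.44 and 10.37 in KO 2, against 8.73 and 9.60 in WT 1 and 9.42 and 9.05 in WT 2. Every KO-labelled array was at least 0.77 log2 above every WT array. KO-labelled Tregs averaged 10.78 ± 0.44 and WT Tregs 9.20 ± 0.39 (SD, n = 4 each), a 2.98-fold difference. The log2 difference was 1.58 (SE 0.39), with 1.95 for KO 1 and 1.20 for KO 2, and it did not pass in limma (adjusted p = 0.287). It passed after quantile normalization, at 1.32 (adjusted p = 0.0182). Of all pairs among the 10 receptors, Icos and Tigit had the most alike profiles over the 8 arrays, their root mean square difference being 0.19 log2 once each gene was centred on its mean.

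Cd200r1 (probe set 10435907), the inhibitory receptor for CD200, was the 1 receptor called higher, although the gap between the groups was as wide for Icos. The log2 level of Cd200r1 reached 8.67 and 8.59 in KO 1 and 7.43 and 7.42 in KO 2, against 5.79 and 6.24 in WT 1 and 5.85 and 5.69 in WT 2. The lowest KO-labelled array was 1.18 log2 above the highest WT array. KO-labelled Tregs averaged 8.03 ± 0.69 and WT Tregs 5.89 ± 0.24 (SD, n = 4 each), a 4.4-fold difference. The WT mean was close to that of Cd160, at 5.86. It is not known whether this level is above background, so the fold may not be the true ratio. The log2 difference was 2.14 (SE 0.34, adjusted p = 0.0284 in limma). It was 2.74 for KO 1 and 1.54 for KO 2. The call was lost with median centring (adjusted p = 0.0986), without a variance trend (0.0599), when KO 1B (0.0682), WT 2A (0.0662) or WT 2B (0.0805) was left out, and without both arrays of WT 1 (0.0807) or of WT 2 (0.999). The log2 difference in these fits was 2.02 to 2.26. Without WT 2, limma called 0 of all genes. The related genes Cd200r2, Cd200r3 and Cd200r4, named here for their kinship and not by the rule, had log2 differences of -0.10, -0.04 and 0.17. Whether probes of such paralogs share signal was not examined.

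Havcr2 and Lag3 showed the largest gaps between the KO preparations. Havcr2 (probe set 10375443), which encodes TIM-3, was at 8.32 and 8.18 in KO 1 and 6.94 and 6.91 in KO 2, against 6.40 and 6.40 in WT 1 and 6.56 and 6.50 in WT 2. KO 2 was 0.35 log2 or more above the WT arrays, whose own spread was small, and KO 1 far above them. KO-labelled Tregs averaged 7.59 ± 0.77 and WT Tregs 6.47 ± 0.08 (SD, n = 4 each). The log2 difference of 1.12 (SE 0.32) did not pass (adjusted p = 0.423). It was 1.78 for KO 1 and 0.46 for KO 2. Lag3 (probe set 10547906), a CD4-like receptor for MHC class II, was at 10.30 and 10.22 in KO 1 and 8.35 and 8.22 in KO 2, against 8.35 and 8.49 in WT 1 and 8.46 and 7.98 in WT 2. The KO 2 arrays lay inside the WT range. Lag3 differed by 0.95 log2 (SE 0.47, adjusted p = 0.701), made up of 1.94 for KO 1 and -0.04 for KO 2. KO 2 remained below the WT mean under quantile normalization (-0.07), median centring (-0.07) and an equal median and SD (-0.09). Lag3 adjoins Cd4 in the genome; Cd4, named after its values were seen, was 0.69 log2 above the WT mean in KO 1 and 0.15 in KO 2.

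Cd160 (probe set 10500406), a further receptor for the herpesvirus entry mediator, known mainly from NK and CD8 T cells, was at 5.84, 5.72, 5.93 and 5.92 in the KO-labelled arrays, against 5.86, 5.71, 5.91 and 5.95 in the WT arrays. The 2 groups covered nearly the same narrow range. The log2 difference was -0.004 (SE 0.16, adjusted p = 0.989), with a 95% interval from -0.35 to 0.34, and turned to between 0.10 and 0.18 under the other scalings. Its mean over all arrays was below a log2 level of 6, so it was the 1 receptor of the 10 that a filter at that level removed. No detection call per probe set was used here, so it is not known whether this level is above background.

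**Figure D2:**
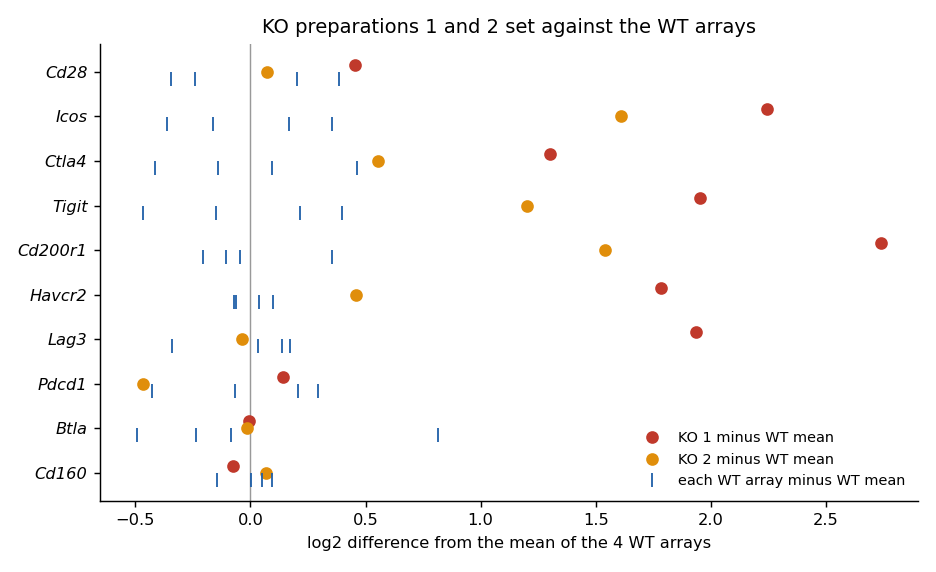
Log2 difference from the mean of the 4 WT arrays (horizontal axis) for KO 1 and KO 2 (means of arrays A and B) and for each WT array, by gene. Icos, Ctla4, Tigit, Cd200r1 and Havcr2 have both KO preparations to the right of every WT array, and Lag3 has KO 2 at -0.04 and KO 1 at 1.94.

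Set directly against each other, KO 1 was above KO 2 for 7 of the 10 receptors at an adjusted p under 0.05 in limma, and below it for 0 of them. Over all genes the shares were 27.7% higher and 31.0% lower in KO 1, so 58.8% differed in either direction. The spread in this fit is that between arrays A and B of a preparation, so these p-values say nothing about further preparations. The largest log2 difference between the preparations was that of Lag3, at 1.97 (SE 0.19, adjusted p = 1.02e-04), followed by Havcr2 at 1.32 (SE 0.14, adjusted p = 2.09e-04). Cd200r1 followed at 1.20 (SE 0.17, adjusted p = 8.62e-04). Tigit, Ctla4, Icos and Pdcd1 had differences of 0.61 to 0.75 with adjusted p from 0.0311 to 0.0479. Cd28, Btla and Cd160 did not pass, at 0.38, 0.01 and -0.14. After quantile normalization 4 of the 10 passed, against 18.7% of all genes, and with an equal median and SD 3 of them, against 41.6% of all genes. The count was also 3 without any 1 of the 4 KO-labelled arrays, where the share of all genes ran from 4.35% (without KO 1A) to 32.0% (without KO 1B). It was 4 without WT 2B, against 54.4% of all genes. Between WT 1 and WT 2, limma called 0 of the 10 and 0 of all genes, with 1 receptor, Btla, at an unadjusted p under 0.05 (log2 difference 0.73, SE 0.24). WT 1A and WT 1B themselves lay apart, at a root mean square difference of 0.44 log2 over all probe sets. WT 1A and WT 2B were closer, at 0.17. The lack of calls therefore does not show that the WT preparations were alike.

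Since KO 1 stood apart in its spread, the comparison was repeated without it, with the KO 2 arrays against the 4 WT arrays taken as separate samples, an alternative chosen after seeing the data. Limma then called 3 receptors higher: Icos at 1.61 (adjusted p = 0.00522), Tigit at 1.20 (adjusted p = 0.0444) and Cd200r1 at 1.54 (adjusted p = 7.3e-04). Over all genes 0.642% were called higher and 0.0803% lower in that fit. These calls rest on a single KO preparation. Havcr2 at 0.46 and Ctla4 at 0.56 did not pass in that fit, with KO 2 still above every WT array for each. Without KO 2 and again with no block, Lag3, Havcr2 and Ctla4 were called as well, 6 receptors in all, but 30.1% of all genes were then called higher and 37.0% lower.

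**Figure D3:**
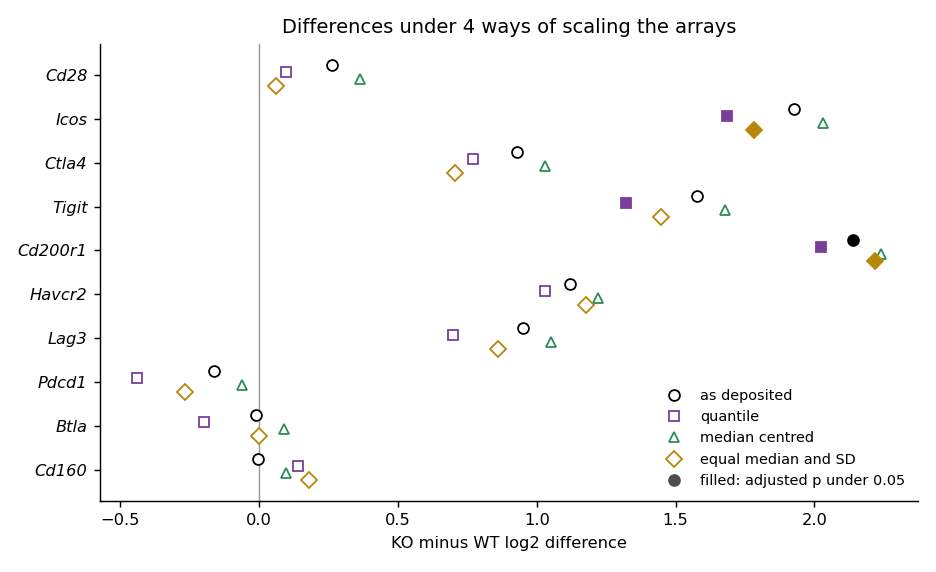
KO-labelled minus WT log2 difference (horizontal axis) of each receptor in the values as deposited and under 3 other scalings of the arrays, with filled symbols at an adjusted p under 0.05. Cd200r1 lies at 2.02 to 2.24 throughout, Icos passes under 2 of the other scalings, and Btla and Cd160 change sign.

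By the scaling the deposited values were left in, 7 of the 10 differences were above 0, against 8616 of 19937 over all genes. For the receptors the count was 8 after quantile normalization and 9 with median centring or an equal median and SD. The list median was 0.73, 1.04 and 0.78 in that order of scalings. The order Cd200r1, Icos, Tigit held at the top in all of them. The median of all genes was at -0.01, 0.04 and 0.08 in the same order.

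The profiles most like those of the separated receptors, by root mean square difference over the 8 arrays after centring each gene, were as follows. Icos was nearest to Vim, a cytoskeletal filament protein (0.07 log2), Cd44, an adhesion receptor (0.12), and Lgals1, which encodes galectin-1 (0.12). Ctla4 was nearest to Ptger4, a prostaglandin E2 receptor (0.03), Fam3c (0.05) and Fem1c (0.06). Havcr2 was nearest to Ifi30, a lysosomal thiol reductase (0.04), Chaf1b, a histone chaperone subunit (0.09), and Alg8, an enzyme of N-glycan synthesis (0.09). Tigit was nearest to Hacd3 (0.08), Tmem154 (0.11) and Capg, an actin-capping protein (0.11), and Cd200r1 to Entpd1, the ectonucleotidase CD39 (0.12), Gbp7 (0.16) and Gata3 (0.16). The arrays share preparations and scaling, so such likeness describes these 8 arrays.

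The ligands of these receptors had a median difference close to that of all genes. Of 15 measured ligand genes, limma called 0 in either direction, against 0.135% of all genes. With so few genes called, 0 calls say little about this list or those below. Before adjustment 3 ligands had a p under 0.05 towards higher and 0 towards lower levels, against 5.65% and 0.542% of all genes. The ligands had a median log2 difference of -0.01, and 7 were above 0 as deposited, against 10 with median centring. Over all genes 8616 of 19937 were above 0 as deposited. Lgals3, which encodes galectin-3, a ligand of LAG-3, was at 9.73, 9.66, 9.05 and 8.70 in the KO-labelled arrays, against 7.65, 7.50, 7.82 and 7.73 in the WT arrays. The groups lay well apart, and the log2 difference was 1.61 (SE 0.29, adjusted p = 0.0605). After quantile normalization Lgals3 was the 1 ligand called, towards higher levels, against 0.607% of all genes. Pdcd1lg2, which encodes the PD-1 ligand PD-L2, differed by 0.77 log2 (SE 0.34, adjusted p = 0.701). For KO 1 alone that was 1.38, and for KO 2 alone 0.16. At the low end, Fgl1, a further LAG-3 ligand, was at -0.30 and Cd86, the shared ligand of CD28 and CTLA-4, at -0.28. All 4 KO-labelled arrays were below all 4 WT arrays for Cd86, although both groups were within 5.86 to 6.34 log2.

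Genes that move receptors to and from the cell surface or cut them there had all 9 log2 differences above 0, under each of the 4 scalings. Over all genes 8616 of 19937 were above 0 as deposited. The median of the 9 was 0.65, or 1.09 for KO 1 alone and 0.22 for KO 2 alone. All 9 were also higher in KO 1 than in KO 2 at an adjusted p under 0.05 in limma, against 27.7% of all genes. Limma called 0 of the 9, against 0.135% of all genes. Before adjustment 1 of the 9 had a p under 0.05 towards higher and 0 towards lower levels, against 5.65% and 0.542% of all genes. That gene was Lrba, which protects CTLA-4 from lysosomal breakdown. It was at 10.05, 9.94, 9.05 and 9.04 in the KO-labelled arrays, against 7.90, 8.75, 8.21 and 8.01 in the WT arrays, a log2 difference of 1.30 (SE 0.38, adjusted p = 0.441). Rab11a, a GTPase of recycling endosomes, was at 0.97 (SE 0.48). The lowest were Ap1m1, a clathrin adaptor subunit, at 0.39 and Trat1, an adaptor that binds CTLA-4, at 0.51, with 1.32 in KO 1 and -0.31 in KO 2.

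Of 17 measured signalling genes downstream of the receptors, limma called 0, against 0.135% of all genes. Before adjustment 1 had a p under 0.05 towards higher and 0 towards lower levels, close to the 5.65% and 0.542% of all genes. The median of the 17 was 0.32, or 0.62 for KO 1 alone and -0.02 for KO 2 alone. Above 0 were 15 as deposited, against 11 after quantile normalization, beside 8616 of all 19937 genes as deposited. Dok1, an adaptor that dampens Ras signalling, was at 0.79 (SE 0.29, adjusted p = 0.644) and Inpp5d, the lipid phosphatase SHIP-1, at 0.68 (SE 0.32). Rasa1, a Ras GTPase-activating protein, was at -0.34 and Prkcq, the protein kinase C of the CD28 pathway, at -0.12. Prkcq was at 0.23 for KO 1 and at -0.47 for KO 2, where it was below every WT array.

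Of 18 measured relatives of the receptors, limma called 0, against 0.135% of all genes, and the median difference was -0.002 log2. Before adjustment 3 had a p under 0.05 towards higher and 0 towards lower levels, against 5.65% and 0.542% of all genes. Lilrb4a, an inhibitory receptor of the leukocyte immunoglobulin-like family, was at 1.11 (SE 0.43, adjusted p = 0.701), or 2.02 for KO 1 alone and 0.19 for KO 2 alone. Cd48, a ligand of CD2 and CD244, was at 1.04 (SE 0.44). Cd226, which competes with TIGIT for its ligands and gives an activating signal, had the lowest difference at -0.62 (SE 0.34, adjusted p = 0.701), opposite in sign to Tigit. Its log2 levels were 6.49, 6.48, 6.77 and 6.95 in the KO-labelled arrays, against 6.92, 7.84, 7.29 and 7.09 in the WT arrays, and they overlapped between KO 2B and WT 1A. Timd4, a phosphatidylserine receptor related to TIM-3, was at -0.26.

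Of 10 transcription factors known to act on such receptors in T cells, limma called 0, against 0.135% of all genes. Before adjustment 3 had a p under 0.05 towards higher and 0 towards lower levels, against 5.65% and 0.542% of all genes. The highest of the 10 were Batf, an AP-1 family factor, at 2.05 (SE 0.40, adjusted p = 0.0825), and Prdm1, which encodes Blimp-1, at 1.98 (SE 0.35, adjusted p = 0.0564). Both were higher in each KO preparation than in any WT array. The lowest were Irf4 at -0.18 and Tox2 at -0.12. For Irf4 the preparations lay on opposite sides of the WT mean, at 0.47 for KO 1 and -0.83 for KO 2, and KO 2 was below every WT array. The factors had a median of 0.25, and after quantile normalization 2 of them, Prdm1 and Batf, were called higher, against 0.607% of all genes.

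**Figure D4:**
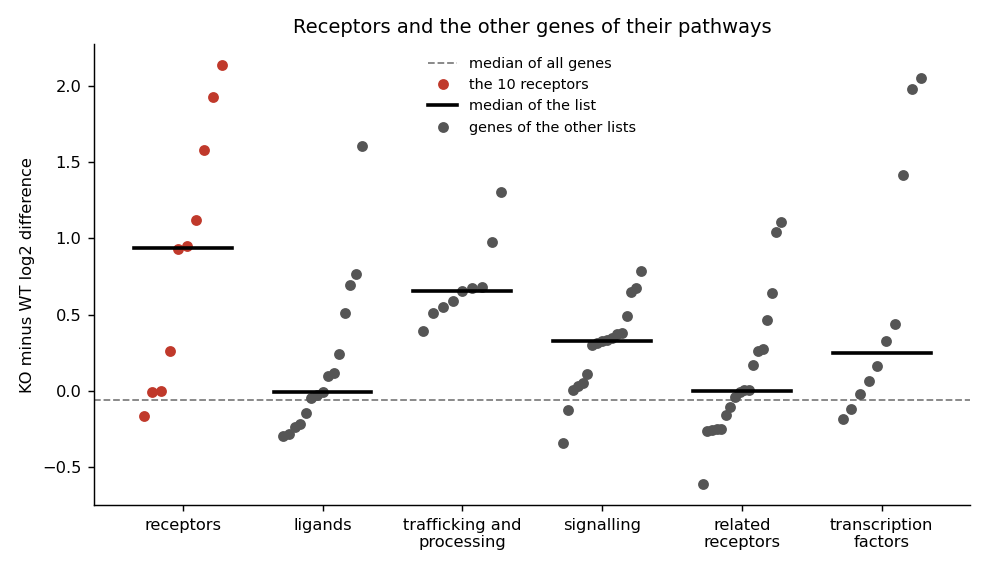
KO-labelled minus WT log2 difference (vertical axis) of the 10 receptors and of the genes in 5 lists around them, each point a gene, with the list median as a bar and the median of all genes as a dashed line. The receptors have a median of 0.94 and the ligands of -0.01. All 9 trafficking and processing genes lie above 0, as do 8616 of all 19937 genes.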

How the data were processed

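RNA from the sorted and stimulated Tregs, 100 ng an array, was hybridised to Affymetrix whole-transcript arrays, per the labels. The authors deposited log2 values per probe set, for which the submitters' processing notes name RMA and Partek; versions, filters and build: not given in the sources used here. All 8 arrays were used as deposited (0 missing values, 0 per-sample columns unused), and none were identical. Array SDs differ, which can widen or narrow the differences of many genes at once, so 3 other scalings were tried.

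The platform annotation gave 1 symbol to 21771 of 28768 probe sets, several to 1557 and none to 5440. Genes with more than 1 probe set took the one with the highest mean, which left 19937 genes. The KO-labelled minus WT difference was fitted with limma 3.58.1 (R 4.3.3; lmFit, then eBayes with a trend). Preparation entered as a random block, with an estimated correlation of 0.617 and 12.8 degrees of freedom. That correlation was -0.63 without KO 1 and -0.64 without KO 2, so these fits were repeated with no block. Tests were two-sided, with Benjamini-Hochberg adjustment over all genes and a threshold of 0.05, and were tried on simulated data. For the KO-labelled minus WT test, the simulated spread between preparations was capped at its median over genes, so larger gaps were not covered. KO 1 and KO 2 were compared in a fit with 1 mean per preparation.

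The receptors, lists and tests were chosen with earlier results of these data known. From each list, called genes and the 2 highest and 2 lowest differences are named. For receptors whose groups do not overlap, the 3 nearest profiles are named, apart from predicted genes, antigen receptor segments and olfactory receptors. Listed genes that the annotation does not pair with a probe set of their own were not analysed here.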

Additional observations from a re-analysis of the deposited data

Results flagged for a closer look

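For 7 of the 10 receptors the KO 1 and KO 2 arrays differed at an adjusted p under 0.05 in limma, against 58.8% of all genes. The log2 difference of KO 1 over KO 2 was 0.747 for Ctla4, 0.635 for Icos, 0.609 for Pdcd1, 1.97 for Lag3, 1.32 for Havcr2, 0.752 for Tigit and 1.20 for Cd200r1. Over all genes 27.7% were higher and 31.0% lower in KO 1, and the SD over all probe sets was also larger in KO 1, at 1.84 to 1.87 against 1.61 to 1.65 in KO 2; the part of that spread in these differences was not tested. After quantile normalization Lag3 was 1.46 log2 above the WT mean in KO 1 and -0.07 from it in KO 2. No array of either group was a lone outlier for any of the 10 receptors by Dixon's ratio. KO-labelled arrays that lie in pairs by preparation, as for Lag3, give a small ratio, so this says little about them.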

How the results depend on the processing

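The number of receptors called higher was 1 as reported, against 0.12% of all genes. With no random block for the preparation it was 3 (0.461% of all genes). With the preparation number as a fixed replicate block it was 4 (3.11%), and with preparation means 2 (0.226%). After quantile normalization the number was 3 (0.607%), with an equal median and SD 2 (0.14%) and with array weights 2 (0.306%). It was 0 with median centring (0.0602%) or with no variance trend (0.105%). In each of these 2 fits limma had 5 receptors higher at an unadjusted p under 0.05. Over all 19937 genes, 1195 and 1327 had such a p in either direction. A filter at a mean log2 level of 6 and the mean of all probe sets left it at 1. Without 1 array it ranged from 0 (KO 1B, WT 2A or WT 2B) to 3 (WT 1B, against 0.256% of all genes). It was 5 without KO 1 (5.64% of all genes higher and 1.71% lower) and 7 without KO 2 (36.3% higher and 48.5% lower). It was 0 without WT 1 (0.0401%) and 0 without WT 2, where 0 of all genes were called. In each of these 2 fits 4 receptors had an unadjusted p under 0.05 in limma, beside 353 and 200 of 19937 genes in either direction. With no random block it was 3 without KO 1 (0.642%) and 6 without KO 2 (30.1%), both added after seeing the data. The number called lower was 0 except without KO 1, where it was 1 (Pdcd1). The labels do not say whether KO and WT preparations of the same number belong together. Over genes, the differences KO 1 minus KO 2 and WT 1 minus WT 2 had a correlation of 0.416. Whether the numbers mark a pairing was not tested.

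The number of receptors that differed between KO preparations was 7 as reported, against 58.8% of all genes. After quantile normalization it was 4 (18.7% of all genes) and with an equal median and SD 3 (41.6%). With the mean of all probe sets of a gene it was 5 (58.7%), although each receptor had 1 probe set. When 1 WT array was left out, it ranged from 4 without WT 2B (54.4%) to 8 without WT 1A or WT 1B (75.1% in each fit). Signs turned only for receptors that did not pass. The log2 difference of Pdcd1 was 0.14 without KO 2, with or without the random block, and -0.34 to 0.0041 when 1 array was left out. That of Lag3 was -0.036 without KO 1, with or without the block. That of Btla was 0.091 with median centring, 0.00012 with an equal median and SD, 0.24 with array weights, 0.35 without WT 1 and -0.21 to 0.22 when 1 array was left out. That of Cd160 was 0.14 after quantile normalization, 0.10 with median centring, 0.18 with an equal median and SD, 0.068 without KO 1 (with or without the block), 0.067 without WT 2 and -0.042 to 0.032 when 1 array was left out. The causes were not tested. No signal over background was given per probe set, so the limit for dim genes is not known.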
